A study of Mus musculus with 2 samples.

Results

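The genes Mir107, Mir103-2, Mir103-1 and Mir33 are 4 of the 2202 microRNA (miRNA) genes counted in neonatal mouse heart. They were chosen by their symbols in the GENCODE M21 annotation, without use of any measured value, because each lies inside a gene of central metabolism. The libraries came from heart tissue of male B6CASTF1/J mice, which are F1 hybrids of C57BL/6J and CAST/EiJ, at 4 days after birth. Replicates 2 and 1 hold 1 library each, made from animals numbered separately under the same donor identifier, and together they form a single group with no treatment or mutant. No comparison between conditions exists, and the comparisons are between the genes within a library and between the replicates.

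A miRNA gene is transcribed as a hairpin, from which a short mature RNA is cut out of the 5p or the 3p arm. The mature RNA guides Argonaute proteins to messenger RNAs, mainly by pairing of its bases 2 to 8, the seed. miR-103 and miR-107 are near-identical miRNAs of the pantothenate kinase genes, whose enzymes catalyse the first committed step of coenzyme A synthesis. In mice they are known for lowering insulin sensitivity in liver and fat. miR-33 lies in Srebf2, the gene of the transcription factor SREBP-2 that switches on cholesterol synthesis, and in mice it is known to repress the cholesterol exporter Abca1.

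The mature sequences are shown first because they decide which reads can be told apart. All 4 genes matched the RefSeq table (build GRCm38.p6), which gives 7 different mature RNAs for them. Capitals mark the seed.
miR-107-3p: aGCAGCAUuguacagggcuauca
miR-103-3p: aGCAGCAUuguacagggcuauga
miR-107-5p: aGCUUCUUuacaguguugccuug
miR-103-2-5p: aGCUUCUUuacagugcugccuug
miR-103-1-5p: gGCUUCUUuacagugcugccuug
miR-33-5p: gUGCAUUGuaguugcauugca
miR-33-3p: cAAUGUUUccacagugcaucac

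The 3 genes of miR-103 and miR-107 share the seed GCAGCAU on the 3p arm and the seed GCUUCUU on the 5p arm. No other counted gene with a RefSeq mature sequence carries either seed, nor either seed of miR-33. miR-103-3p is cut from both Mir103-1 and Mir103-2 with the same 23 bases. Counted from base 1 at the 5′ end, miR-107-3p differs from it by 1 substitution, G22C. Here and below the miR-103 base stands first, and that of miR-107 after it. The 5p arms of Mir103-2 and Mir107 differ by C16U. That of Mir103-1 differs from Mir103-2 by G1A, with the Mir103-1 base first.

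The hairpins are printed with both mature arms in capitals, to show where the 3 copies diverge.
Mir107: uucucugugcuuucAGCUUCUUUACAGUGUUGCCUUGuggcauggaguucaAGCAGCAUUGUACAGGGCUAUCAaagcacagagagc
Mir103-2: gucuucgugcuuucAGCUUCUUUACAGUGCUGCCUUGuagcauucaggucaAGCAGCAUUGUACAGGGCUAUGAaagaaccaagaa
Mir103-1: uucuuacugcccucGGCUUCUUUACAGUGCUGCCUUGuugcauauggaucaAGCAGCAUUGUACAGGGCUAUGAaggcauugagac
Mir33: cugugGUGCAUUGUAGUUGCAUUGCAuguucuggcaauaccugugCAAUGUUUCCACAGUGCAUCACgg

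Over the first 86 bases, Mir107 and Mir103-2 are identical at 73 bases, Mir103-1 and Mir107 at 69, and Mir103-1 and Mir103-2 at 69. Most differences lie outside the arms. Between Mir103-1 and Mir103-2 the 3p arm is 100% identical and the 5p arm 95.7%, whereas the loop is 64.3% and the 3′ flank 50.0% identical. The longest run shared by Mir103-1 and Mir103-2 is 27 bases, and each shares 24 bases with Mir107. Mir33 shares no more than 8 bases in a row with any of the 3.

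A read that begins at base 1 of miR-107-3p matches 3 hairpins at lengths of 18 to 21 bases and only Mir107 at 22 or 23 bases. A read of miR-103-3p matches the same 3 hairpins up to 21 bases, and both Mir103 hairpins at 22 or 23 bases. No length of mature miR-103-3p therefore belongs to a single gene. Reads from base 1 of the 5p arms match their own hairpin alone from 18 bases on, and so do reads of both arms of Mir33. The deposited tables put reads that match several places into a line of their own, not into gene counts. The counts under Mir103-1 and Mir103-2 are therefore no measure of miR-103-3p, and those under Mir107 leave out shorter reads of miR-107-3p. A gene's count adds up both of its arms, so 5p and 3p reads cannot be told apart in it. How the multi-mapped reads divide among miRNAs was not tested.

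**Figure D1:**
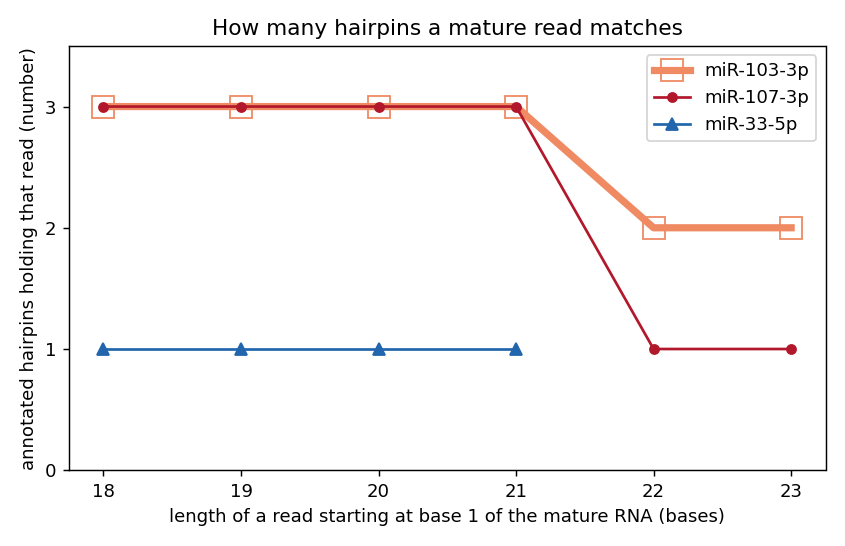
Number of annotated miRNA hairpins (vertical axis) that hold a read starting at base 1 of a mature RNA, against read length in bases (horizontal axis). miR-107-3p (filled circles) reaches 1 hairpin at 22 bases, miR-103-3p (open squares) stays at 2, and miR-33-5p (triangles) is at 1 throughout.

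Each gene lies in an intron of its host on the host's strand (mm10, GENCODE M21). Mir107 (chr19:34820687-34820773, minus strand) lies in intron 5 of 6 of the Pank1 transcript used, 326 bases after the upstream exon. Mir103-2 (chr2:131288052-131288137, plus strand) lies in intron 5 of 6 of Pank2, 454 bases after the upstream exon. Mir103-1 (chr11:35782396-35782481, plus strand) lies in intron 5 of 6 of Pank3, 688 bases after it. The 3 copies thus hold the same place in their host genes, although the introns are 7282 bases long in Pank1, 5801 in Pank2 and 1740 in Pank3. Mir33 (chr15:82198122-82198190, plus strand) lies in intron 16 of 18 of Srebf2, which is 1848 bases long. No other miRNA hairpin overlaps any of them, and the nearest one on the chromosome is at least 70074 bases away. Counts on the opposite strand were 0 for all 4 genes in both libraries, and counts taken without regard to strand equalled the sense counts.

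Sense counts, those on the gene's strand, came to 3801738 in replicate 2 and 4196577 in replicate 1. Multi-mapped reads numbered 3929811 and 3657699, or 42.3% and 38.1% of all reads in the tables. Levels are given as CPM, a count over the library's sense total, of which 1 read makes 0.263 in replicate 2 and 0.238 in replicate 1. Heart muscle markers were present, with Mir208a, Mir208b and Mir499 summing to 8858 and 13054 CPM. The liver marker Mir122 had 105 and 309 CPM, and 4 of 6 neuron hairpins had no reads in either library. The neuron hairpins are numbered copies of the same miRNAs, and reads shared by copies fall in the multi-mapped line. Their zeros are therefore no measure of the mature RNAs. The libraries differed in other markers, with the endothelial Mir126a at 49330 CPM in replicate 2 and 109199 CPM in replicate 1, and the neuron hairpin Mir9-3 at 82 counts and 1 count. The part of such differences in the ratios between the replicates below was not tested. PCR copies of a molecule are counted as separate reads, so intervals describe counting error alone. Errors given as ± are SDs over both libraries (n = 2).

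Mir107 carried nearly all of the reads assigned to these genes. It had 21327 sense counts in replicate 2 and 15330 in replicate 1, which is 5610 CPM (95% Wilson interval 5535 to 5685) and 3653 CPM (3596 to 3711). It averaged 4631 ± 1384 CPM, the 35th highest level of all genes, and 30 of the 344 tested genes without an identical mature copy elsewhere stood above it. Of all counts assigned to the 3 genes of miR-103 and miR-107 it held 99.2% in replicate 2 and 99.0% in replicate 1. For scale, the heart muscle miRNA Mir499 had 4633 CPM in replicate 2 and 5794 CPM in replicate 1.

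Mir103-2 had 154 and 144 counts in replicates 2 and 1. This is 40.5 CPM (34.6 to 47.4) in replicate 2 and 34.3 CPM (29.1 to 40.4) in replicate 1, so the intervals overlap. Mir103-1 had 23 and 6 counts, which is 6.05 CPM (4.03 to 9.08) and 1.43 CPM (0.655 to 3.12). Its intervals do not overlap, and replicate 2 is the higher. The 2 genes averaged 37.4 ± 4.38 and 3.74 ± 3.27 CPM, and ranked 217th and 334th of the 2202 genes by mean level.

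Mir33, the only miR-33 gene counted, was read at a low level in both libraries. It had 61 counts in replicate 2 and 51 in replicate 1, or 16.0 CPM (12.5 to 20.6) and 12.2 CPM (9.24 to 16.0). It averaged 14.1 ± 2.75 CPM and ranked 271st. All of its 20-base windows, 50 of 50, occur in no other annotated miRNA hairpin. Mir107, Mir103-2 and Mir103-1 share 9, 16 and 12 windows with one another, and 1133 of all 2202 hairpins (51.5%) share at least 1 with another hairpin. Copies elsewhere in the genome were not searched.

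**Figure D2:**
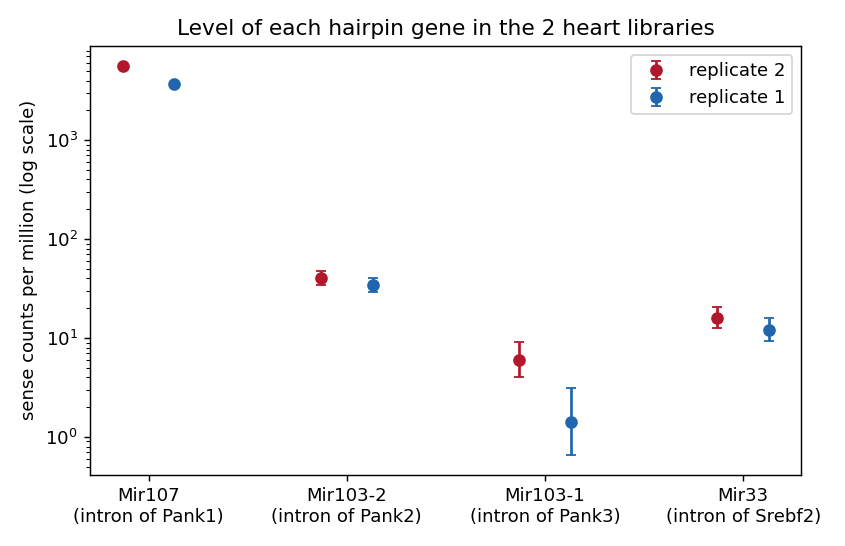
Sense CPM (log axis) of each gene in replicate 2 (red, left) and replicate 1 (blue, right), with 95% Wilson intervals as bars. Mir107 stands at 5610 and 3653 CPM, and the other 3 genes lie between 1.43 and 40.5 CPM.

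The order of levels was the same in both libraries, namely Mir107, Mir103-2, Mir33 and Mir103-1. Counts are those of short RNAs, so the hairpins' lengths of 69 to 87 bases were not divided out. Ratios within a library are free of scaling, and all 6 pairs were computed. Mir107 over Mir103-2 was 138-fold in replicate 2 (exact 95% interval 118 to 163) and 106-fold in replicate 1 (90.3 to 126), a mean log2 ratio of 6.92 ± 0.27. Mir107 over Mir33 was 350-fold (272 to 457) and 301-fold (228 to 404), a mean log2 ratio of 8.34 ± 0.15. Both lie far from 0 beside the spread between the libraries. The ratio to Mir103-2 is of assigned reads only, because miR-103-3p matches both Mir103 hairpins at every read length. It is no ratio of mature miR-107 to mature miR-103.

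Among the 3 low genes, Mir103-2 over Mir33 was 2.52-fold in replicate 2 (1.87 to 3.45) and 2.82-fold in replicate 1 (2.04 to 3.97). The mean log2 ratio was 1.42 ± 0.11. Mir103-1 over Mir33 was 0.377 (0.223 to 0.618) and 0.118 (0.0413 to 0.274). This mean log2 ratio was -2.25 ± 1.19, so the gap between the lowest neighbours is the least certain of the order. Mir103-2 over Mir103-1 was 6.70-fold (4.30 to 10.9) in replicate 2 and 24.0-fold (10.8 to 66.5) in replicate 1, a mean log2 ratio of 3.66 ± 1.30. The 2 copies of miR-103 thus differed in assigned reads in both libraries, by amounts that the libraries do not agree on closely. The remaining pair, Mir107 over Mir103-1, had a mean log2 ratio of 10.59 ± 1.03.

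Genes with a summed count of at least 10 were tested, which left 441 of 2202, all 4 of these among them. In rank of mean level among the 313 tested genes that lie inside a host gene on the same strand, Mir107 was 28th, Mir103-2 149th, Mir33 184th and Mir103-1 227th. An identical mature RNA in another gene is shared by 92 annotated genes, of which 47 (51.1%) were tested. These 47 had a median of 33.2 CPM and reached at most 3595 CPM (Mirlet7f-2). Of these 47, 22 stood above Mir103-2 and 41 above Mir103-1. Of 926 genes with no identical mature RNA elsewhere, Mir107 and Mir33 among them, 344 (37.1%) were tested. These 344 had a median of 37.6 CPM, with 172 above Mir103-2 and 260 above Mir103-1. Both medians cover tested genes only, and genes without a RefSeq mature sequence are in neither set. Reads that match several places are left out of gene counts, so genes with shared sequence lose such reads. The medians do not measure this loss. Mir107, in the set without an identical mature RNA, also shares its shorter miR-107-3p reads with other hairpins. How far multi-mapping lowers each count was not tested.

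**Figure D3:**
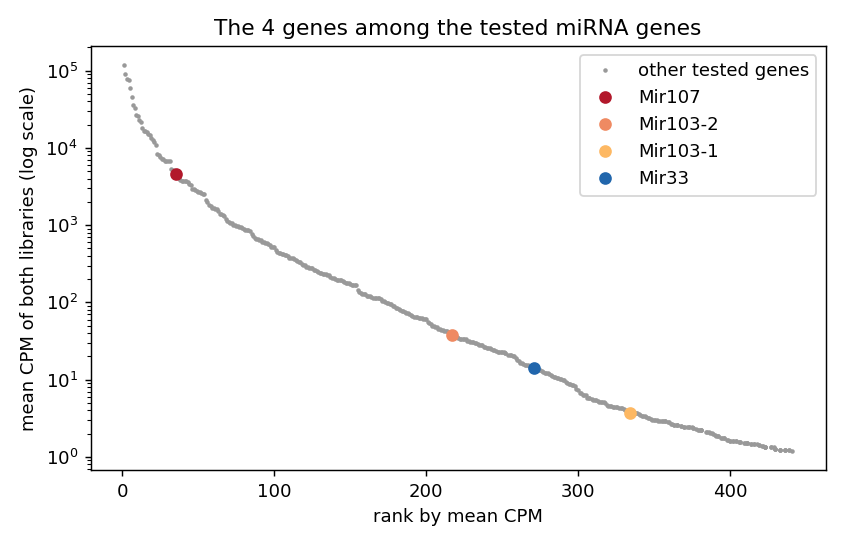
Mean CPM of both libraries (log axis) against rank for the 441 tested genes (grey), with the 4 genes in colour. Mir107 is at rank 35, Mir103-2 at 217, Mir33 at 271 and Mir103-1 at 334.

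All 4 genes had more CPM in replicate 2 than in replicate 1. This comparison is between libraries and not conditions. The log2 ratios of replicate 2 over replicate 1, on the log2(CPM + 1) scale, were 0.62 for Mir107, 0.23 for Mir103-2, 1.54 for Mir103-1 and 0.37 for Mir33. The median over the 441 tested genes was -0.26, and the median size of a log2 ratio regardless of sign was 0.50. Mir103-2 and Mir33 were below that median size and Mir107 above it, and 93.7% of tested genes had a log2 ratio of smaller size than Mir103-1.

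By Fisher's exact test (two-sided, Benjamini-Hochberg adjusted over all tested genes), 251 of 441 genes (56.9%) passed the threshold of 0.05. Of all tested genes 20.4% passed as higher and 36.5% as lower in replicate 2. Mir107 and Mir103-1 passed as higher, and none of the 4 genes as lower. Mir107 was 1.54-fold higher (exact 95% interval 1.504 to 1.568), with an adjusted log10 p of -364, a value that reflects its depth. Mir103-1 was 4.23-fold higher (1.67 to 12.7), with an adjusted p of 0.00135 in the exact test. Mir103-2 was at 1.18-fold (0.934 to 1.49) with an adjusted p of 0.231, and Mir33 at 1.32-fold (0.895 to 1.95) with an adjusted p of 0.221. The share of 2 in 4 called is close to the share of all tested genes.

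Fisher's test takes counting error as the only error, whereas the libraries' biological coefficient of variation over 344 genes was 0.376 (edgeR). That spread was estimated from the same libraries that are compared, 1 against 1, so few calls are built into a test that uses it. With it, edgeR's exact test gave adjusted p of 0.656 for Mir103-1 and 1.0 for each of the other 3 genes. This exact test called 2 of 441 genes (0.454%). Its unadjusted p was under 0.05 for 25 genes (5.67%), Mir103-1 among them with p = 0.0313 in edgeR's exact test. By size alone, 243 genes averaged 100 or more counts per library, and 41 of them (16.9%) were over 2-fold apart. Mir107 and Mir103-2 have such counts and did not.

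**Figure D4:**
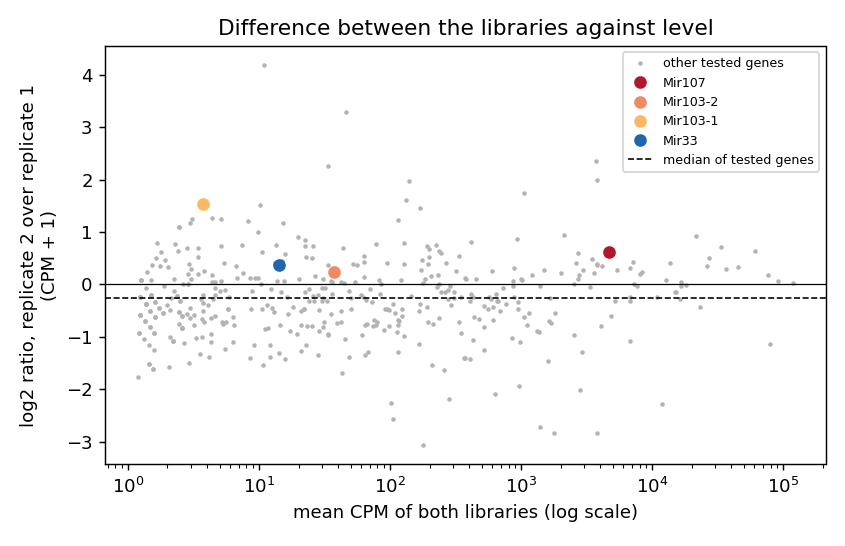
Log2 ratio of replicate 2 over replicate 1 (CPM + 1) against mean CPM (log axis) for the 441 tested genes, with the 4 genes in colour, a solid line at 0 and a dashed line at the median of -0.26. All 4 genes lie above both lines, at 0.23 to 1.54.

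The 3 tested genes nearest to each one in both libraries were found by Euclidean distance of log2(CPM + 1) over the 2 libraries. Nearest to Mir107 were Mir379 (distance 0.27) at 4644 and 3650 CPM, Mir127 (0.41) and Mir181d (0.42). Nearest to Mir103-2 were Mir412 (0.16), Mir378c (0.17) and Mir206 (0.24). Nearest to Mir33 were Mir7-1 (0.11) at 17.4 and 12.4 CPM, Mir302a (0.13) and Mir450-2 (0.23). Nearest to Mir103-1 were Mir669h (0.30), Gm24270 (0.37) and Mir1949 (0.39), all with 25 or fewer counts in a library.

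The pair miR-103 and miR-107 belongs to a wider group that shares the hexamer AGCAGC near the 5′ end, known as the miR-15 and miR-107 group and reported to act on cell cycle and metabolic genes. In this pair the hexamer stands at bases 1 to 6, in the others at bases 2 to 7. Capitals mark it in the members with the most counts.
miR-107-3p: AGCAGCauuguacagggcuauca
miR-322-5p: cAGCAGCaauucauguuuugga
miR-15b-5p: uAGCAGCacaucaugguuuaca
miR-195a-5p: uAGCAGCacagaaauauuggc
miR-15a-5p: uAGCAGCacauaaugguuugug

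Mir107 was second in this group by mean level of assigned reads, behind Mir322 at 29358 and 22954 CPM. In replicate 1, however, Mir15b stood above it, with 1121 CPM in replicate 2 and 4521 in replicate 1. The same mature miR-16-5p is cut from Mir16-1 and Mir16-2, so its reads match both and, like those of miR-103-3p, are not in gene counts. The rank of Mir107 therefore does not cover miR-16 or miR-103. Mir195a had 437 and 3125 CPM, and Mir15a 851 and 2351. Of 7 listed genes outside this pair, all tested, Fisher's exact test called 1 higher and 5 lower in replicate 2, beside 90 higher and 161 lower of all 441. Their median log2 ratio was -0.90, against -0.26 over all tested genes. Either TMM or DESeq2 scaling gave 2 higher and 4 lower, beside 124 and 116 (TMM) and 136 and 104 (DESeq2) of all tested genes. Mir497a is annotated as Mir497 and was not matched under its listed name. Mir497 had 307 and 728 CPM.

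**Figure D5:**
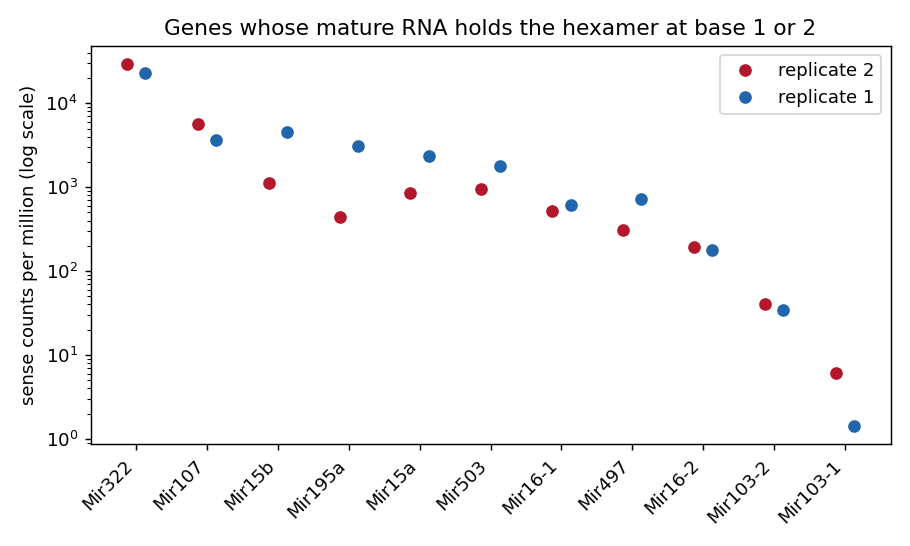
Sense CPM (log axis) of the genes with reads whose mature RNA holds AGCAGC at bases 1 to 6 or 2 to 7, in replicate 2 (red, left) and replicate 1 (blue, right). Mir322 is highest, Mir107 has 5610 and 3653 CPM, and both Mir103 genes are lowest. Reads that lie wholly within the mature RNA shared by both Mir103 genes, or within that shared by Mir16-1 and Mir16-2, are not in these counts.

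Other miRNAs reported to act on sterol and lipoprotein genes, such as Abca1 or the LDL receptor, were mostly above Mir33. Of 15 listed genes 13 were tested, and Fisher's exact test called 2 higher and 10 lower in replicate 2, beside 20.4% higher and 36.5% lower of all tested genes. Their median log2 ratio was -0.38, against -0.26 over all tested genes. TMM scaling gave 2 higher and 8 lower, beside 124 and 116 of all tested genes. DESeq2 scaling gave 3 higher and 5 lower, beside 136 and 104. Mir27b had 3842 and 5797 CPM, Mir145a 5998 and 1501, Mir106b 399 and 1535, and Mir185 829 and 1052. Mir33 thus stood below all 13 tested genes by mean level, the lowest of which was Mir128-2 at 33.2 ± 5.29 CPM. Mir128-2, like some others of the list, is a numbered copy, and reads shared by copies fall in the multi-mapped line. Its level is therefore no measure of the mature RNA. The 2 untested genes were Mir758, with 8 counts in replicate 2 and 0 in replicate 1, and Mir96, with 3 and 2.

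Of 8 miRNAs linked to insulin and glucose, 7 were tested, and Fisher's exact test called 3 higher and 2 lower in replicate 2, again beside 20.4% and 36.5% of all tested genes. Their median log2 ratio was -0.58, against -0.26 over all tested genes. With a pseudocount of 10 CPM in place of 1 CPM it was -0.18, against -0.13 over all tested genes. Mir143, a smooth muscle miRNA, had 73470 and 47075 CPM, and Mir26b 31773 and 22393. Mir29a had 203 and 538 CPM, and Mir29c 48.9 and 83.4. Mir802 had 0 counts in both libraries, which allows up to 0.789 CPM in replicate 2 and 0.715 CPM in replicate 1, the level of 3 counts in each library.

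The seeds were also looked up in the 3′ untranslated regions (UTRs) of reported targets and of the host genes, as a description of sequence only. Messenger RNA levels were not analysed here. The match of bases 2 to 8 is CAATGCA for miR-33-5p and ATGCTGC for miR-103 and miR-107, searched on the transcript's strand in the longest annotated 3′ UTR of 21024 protein-coding genes. CAATGCA occurs in 7.11% of these and ATGCTGC in 11.3%, shares that were not adjusted for UTR length. The UTRs of Abca1 and Dicer1 have 3156 and 3851 bases, and 11.9% and 7.57% of all UTRs are longer. Those of Crot and Hadhb have 819 and 505 bases, with 54.9% and 67.7% longer. Pank1 and Pank3 have 5388 and 5827 bases and hold neither match. Abca1 holds CAATGCA 3 times within 30 bases, the first pair overlapping by 2 bases. The fatty acid oxidation genes Cpt1a, Crot and Hadhb hold it 1 time each. ATGCTGC occurs 1 time in Cav1, the caveolin gene through which miR-107 and miR-103 are reported to act on insulin signalling, and 1 time in Dicer1. None of the 4 host genes holds ATGCTGC, and of them only Pank2 holds CAATGCA, 1 time. Cav1 also holds CAATGCA 1 time, and Dicer1 does not hold it.

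Capitals mark the matches in the Abca1 stretch (chr4:53033783-53033812, minus strand, GRCm38) and the Cav1 site (chr6:17341255-17341276, plus strand), shown because both are reported targets.
Abca1: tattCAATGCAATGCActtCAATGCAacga
Cav1: ttttacacttttttATGCTGCa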

How the data were processed

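MicroRNA sequencing libraries of mouse heart, 1 per replicate, form a single group. The authors deposited raw read counts per miRNA gene in 3 columns, without regard to strand, on the gene's strand and on the opposite strand, as read from the values. Reads were aligned to mm10 with GENCODE M21 genes, per the deposited description files. For the aligner, neither name nor version is given in the sources used here. Whether reads carrying CAST alleles aligned less often was not tested.

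Lines naming no gene held 59.1% of reads in replicate 2 and 56.2% in replicate 1 and were left out of totals. CPM, log2(CPM + 1) ratios of replicate 2 over replicate 1, Fisher's exact test (scipy 1.17.1, Benjamini-Hochberg adjusted) and edgeR 4.0.16's exact test were computed from the counts. With 1 library a side, edgeR's quasi-likelihood test could not be fitted. The labels number the animals separately. If they were not separate, the spread is technical, and tests compare libraries only. The Fisher script was tested on simulated data. Alternatives were TMM and DESeq2 1.42.0 scaling, counts without regard to strand, no count minimum, a pseudocount of 10 CPM and totals of all reads.

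Named genes are the 4 genes, the 3 nearest to each, the 4 most abundant of each list, and overlapping hairpins. Others were named after their values were seen, as were the genes of the UTR search. The others are Mir499, Mir208a, Mir208b, Mir122, Mir126a and Mir9-3 as tissue markers, and Mirlet7f-2, Mir497, Mir16-1, Mir16-2, Mir128-2, Mir758, Mir96 and Mir802. The genes and lists were chosen with earlier results of these data known. Hairpin windows were compared among annotated miRNA hairpins on both strands.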

Additional observations from a re-analysis of the deposited data

How the results depend on the processing

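The direction of all 4 genes, higher in replicate 2, held under every setting tried. Total-count scaling, TMM and DESeq2 differ by an overall shift of 0.24 (TMM) and 0.31 (DESeq2) in log2 ratio. With TMM scaling Mir103-2 had a log2 ratio of 0.47 (adjusted p = 0.00878, Fisher's exact test) and Mir33 0.60 (adjusted p = 0.04), and with DESeq2 scaling 0.54 (adjusted p = 0.00227) and 0.67 (adjusted p = 0.0196), so both passed the threshold there. The number of genes differing between the libraries was 251, with 90 higher and 161 lower. It came to 240 after TMM scaling (124 and 116), 240 after DESeq2 scaling (136 and 104), 237 without regard to strand (67 and 170), 238 with no count minimum and 2 by edgeR's exact test, whose spread was estimated on these libraries. Leaving out a replicate gave log2 ratios of 6.73 to 7.11 for Mir107 over Mir103-2 and of 8.23 to 8.45 for Mir107 over Mir33. Scaled to all reads in place of sense counts, mean levels in CPM were 1947 for Mir107, 15.8 for Mir103-2, 5.94 for Mir33 and 1.55 for Mir103-1. Without regard to strand, the smaller total raised the means of Mir103-2 to 48.6 and Mir33 to 18.3 CPM. With a pseudocount of 10 CPM the log2 ratio of Mir103-1 was 0.49, against 1.54 with 1 CPM. Windows of 18 or 22 bases in place of 20 left 3 of the 4 hairpins with a shared window, beside 51.5% of all hairpins at 20 bases. No paired analysis was possible because the samples form a single group. With 6 counts in replicate 1, depth limits Mir103-1 most.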
